A study of Mus musculus with 32 samples.

Results

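The genes described here encode the proteins of the mitochondrial ribosome. Members were chosen by name alone, as every symbol that starts with Mrpl or Mrps followed by a number, that is not a pseudogene and that reached a mean of at least 1 TPM (a transcript abundance per length, scaled to the same total in every library) over all mice. All 77 matching symbols met that level, 48 of the large subunit and 29 of the small subunit by symbol, out of 20821 symbols in the table, of which 11284 reached 1 TPM and were tested. Livers of 4 Gclc KO mice (Gclc f/f Rosa26-CreERT2) were compared with those of 4 Gclc WT mice (Gclc f/f, without the recombinase). Gclc codes for the catalytic part of glutamate-cysteine ligase, the first enzyme of glutathione synthesis. All were adult mice with floxed Gclc alleles that received 150 mg/kg tamoxifen by i.p. injection for 5 days per the labels, with the liver taken 14 days later; the methods of the study name a slightly higher dose. The recombinase is expressed from Rosa26, so the deletion is body-wide and not limited to hepatocytes, and the study describes severe weight loss in the Gclc KO mice. No control mouse carried CreERT2, so the recombinase and the loss of Gclc cannot be told apart. Each mouse was measured in 4 RNA-seq libraries, which were averaged, giving 32 libraries and n = 4 mice per genotype.

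The mitochondrial ribosome translates the few mRNAs of mitochondrial DNA, all of which encode subunits of the respiratory chain and ATP synthase. Its rRNAs come from mitochondrial DNA, but its proteins are encoded in the nucleus, made in the cytosol and imported. Some of these proteins descend from bacterial ribosomal proteins, while others have no bacterial counterpart and are specific to mitochondria. The liver is rich in mitochondria, and respiratory chain subunits of nuclear origin have to be matched by those made inside the organelle.

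Gclc mRNA was 26.9, 16.1, 18.6 and 26.8 TPM in Gclc KO mice 1 to 4, against 82.3, 114.1, 77.8 and 138 TPM in Gclc WT mice 1 to 4 (limma log2 fold change −2.17, SE 0.23, adjusted p = 0.000612). The 7 hepatocyte markers summed to 97492 to 174058 TPM in Gclc KO livers and 87928 to 122574 TPM in Gclc WT livers, with 1 of them higher. Kupffer cell markers (10 genes, of which Vsig4, C1qa, C1qb, C1qc and Cd68 were higher) summed to 738 to 1149 TPM in Gclc KO and 307 to 826 TPM in Gclc WT livers. Neutrophil and monocyte markers (8 genes, of which Lcn2 and Itgam were higher) summed to 1602 to 11246 TPM in Gclc KO and 94.3 to 2082 TPM in Gclc WT livers, with the highest sums in Gclc KO 2 and Gclc KO 3. Most of the sum in Gclc KO livers was Lcn2, which hepatocytes also make in the acute-phase response, at 1428 to 11105 TPM in Gclc KO and 15.02 to 1623 TPM in Gclc WT livers, and 2 of the 7 tested markers, S100a9 and Ly6c2, had log2 fold changes below 0 (−0.53 and −0.73, not called). Erythroid markers (4 genes, of which Hba-a1 and Alas2 were lower) summed to 289 to 1085 TPM in Gclc KO and 880 to 3092 TPM in Gclc WT livers, and 2 of 7 stellate and fibroblast markers were lower, with sums of 142 to 202 TPM in Gclc KO and 134 to 270 TPM in Gclc WT livers. Exocrine pancreas markers (10 genes) summed to 6.86 to 18.9 TPM in Gclc KO livers and 14.5 to 351 TPM in Gclc WT livers, where Gclc WT 1 held the highest sum. No marker of these lists was at 0 in every mouse. The labels give no sex. Xist, the RNA that silences one X chromosome in female cells, was at 30.2 TPM in Gclc KO 2, 22.8 TPM in Gclc KO 3 and 25.7 TPM in Gclc WT 3, and at or below 0.0225 TPM in the other mice. Ddx3y, a gene of the Y chromosome, was at 0 TPM in the mice with Xist and at 22.6 to 32.7 TPM in the others. Both transcripts mark Gclc KO 2, Gclc KO 3 and Gclc WT 3 as female, so sex was not balanced between the genotypes. The part of these differences in the results was not tested beyond the fits with Xist and without single mice given here. In bulk tissue, fewer cells of a type and less RNA per cell cannot be told apart.

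Several transcription factors are known to act at promoters of this gene family, among them nuclear respiratory factor 1, ETS proteins and YY1, and short stretches at the starts of members that were lower in Gclc KO livers are shown to let these motifs be seen in place. RefSeq promoter entries (GRCm38.p6, 250 bases before to 50 after the start) were matched for 68 of the 77 members. Capitals mark the motif, all stretches run 5′ to 3′ on the strand of the gene, and the Mrpl9 stretch lies before the start at chr3:94443278-94443335 (plus strand). The Mrps21 stretch (chr3:95871479-95871507, minus strand), the Mrps33 stretch (chr6:39810887-39810909, minus strand) and the Mrpl49 stretch (chr19:6057721-6057750, minus strand) lie within the first 50 bases of the transcript. The Mrps5 stretch lies before the start at chr2:127587313-127587381 (plus strand).
Mrpl9, nuclear respiratory factor 1 motif: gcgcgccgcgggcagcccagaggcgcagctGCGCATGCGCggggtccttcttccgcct
Mrps21, ETS motif: cgtagcttccgCTTCCGGtccgcagagac
Mrps33, ETS motif: ggggggcgggcCTTCCGGggacg
Mrpl49, YY1 motif: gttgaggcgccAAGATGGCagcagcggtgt
Mrps5, antioxidant response element: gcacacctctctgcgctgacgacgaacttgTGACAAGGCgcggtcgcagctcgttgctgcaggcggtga

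Each motif was searched as its letters on both strands. The nuclear respiratory factor 1 motif GCGCATGC was found in 8 of 68 members (11.8%), against 6.06% of the 8630 tested genes with an entry and 3.05% of all 27025 entries. In Mrpl9 it lies 28 bases before the start, and because its palindromic core matches on both strands with an overlap, the capitals there cover both matches. The ETS motif CCGGAAG was found in 25 members (36.8%), against 20.6% of tested genes and 9.93% of all entries. The YY1 motif AAGATGGC was found in 12 members (17.6%), against 5.49% of tested genes and 3.19% of all entries. The antioxidant response element TGACNNNGC, the core bound by NRF2, was found in 13 members (19.1%), against 17.1% of tested genes and 14.0% of all entries. These are matches of letters in a fixed window and not measured binding. Among the 9 members that were lower in Gclc KO livers and had an entry, the antioxidant response element was found in 5 (Mrpl41, Mrps10, Mrps15, Mrps21 and Mrps5), the ETS motif in Mrps21 and Mrps33, the nuclear respiratory factor 1 motif in Mrpl9 and the YY1 motif in Mrpl49. These 9 were picked by their fold changes, and their difference from the other members was not tested.

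A minority of mitochondrial ribosomal protein mRNAs passed the test, and all that did were lower in Gclc KO livers. Of the 77 members, 11 were lower, 0 were higher and 66 were not called (limma on log2(TPM + 1), adjusted p below 0.05 with Benjamini-Hochberg adjustment over all 11284 genes). The share of members called lower was 14.3%, against 8.61% of all genes tested, and the share called higher was 0%, against 12.8% of all genes tested. At an unadjusted p below 0.05, 24 members were lower and 2 higher. The median level was 34.7 TPM in members, against 10.9 TPM in all genes tested. Where a mean of at least 10 TPM was required, 12 of 72 members were lower (16.7%, against 13.0% of all genes in that fit). The fold change was below 0 in 56 of 77 members (72.7%), against 40.1% of all genes tested, and its median was −0.15 on the log2 scale in members, against 0.09 in all genes tested. The changes were small, with a range of −0.54 to 0.30 and no member beyond 2-fold. In 17 members every Gclc KO mouse lay below every Gclc WT mouse (22.1% of members, against 10.2% of all genes tested), and in 1 member, Mrpl17, every Gclc KO mouse lay above (against 14.5% of all genes tested).

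**Figure D1:**
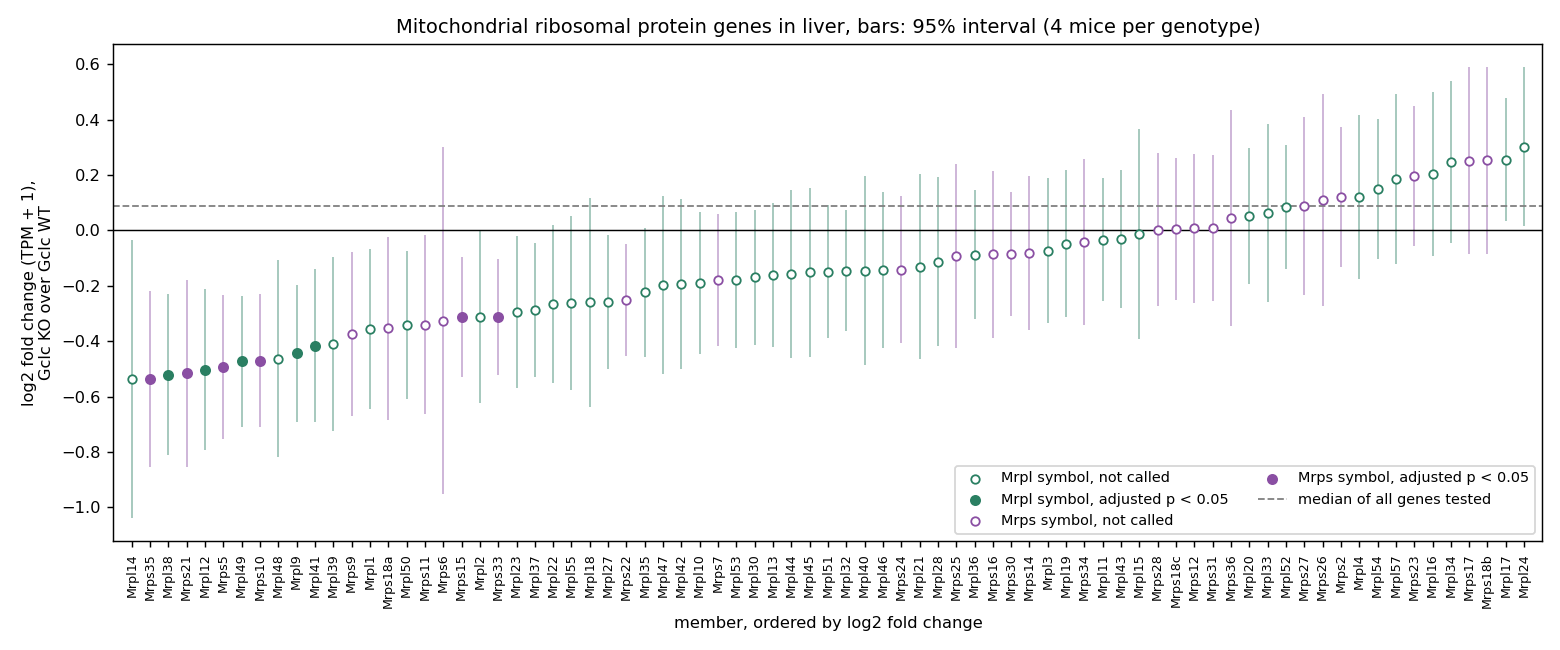
Log2 fold change (on TPM + 1) of each of the 77 members, Gclc KO over Gclc WT, ordered from lowest to highest, with 95% intervals from limma (n = 4 mice per genotype). Filled points are the 11 members with an adjusted p below 0.05, all on the lower side, and the dashed line is the median of all genes tested (0.09); 56 members lie below 0.

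Counts of called members depended on the scaling and on single mice. TPM are relative to the total of a library, and after scaling by a trimmed mean of M values 21 members were lower and 0 higher (34 and 0 at an unadjusted p below 0.05), with 1274 of all genes higher and 1392 lower, against 1439 higher and 972 lower in TPM. Median of ratios gave 20 members lower and 0 higher. These 2 scalings moved the median of all genes to 0.01 in both, while the median of the members relative to that of all genes was −0.24 in TPM, −0.24 with trimmed means and −0.25 with median of ratios. Without Gclc WT 2 no member passed limma's adjusted threshold (13 lower and 1 higher at an unadjusted p below 0.05), and the calls over all genes dropped to 698 higher and 557 lower (4.94% lower). Leaving out Gclc WT 4 gave 3 members lower (3.90%, against 5.88% of all genes in that fit), Gclc KO 3 gave 4 (5.19%, against 5.65%) and Gclc KO 1 gave 6 (7.79%, against 6.69%). In the 5 mice without Xist, 2 members were lower (Mrpl9 and Mrps10; 2.60%, against 5.92% of all genes in that fit) and 1 higher (Mrpl24). With Xist as a covariate 7 were lower (9.09%, against 8.81%). Batch 1 libraries alone gave 12 members lower (15.6%, against 8.14%) and batch 2 libraries alone 7 (9.09%, against 6.66%). The share of members called lower was above that of all genes in 20 of 24 settings and below it in 4, namely without Gclc WT 2, Gclc WT 4 or Gclc KO 3 and in the mice without Xist. The settings refit the same 8 mice and several differ little from the main fit, so this tally is not independent evidence. Some gaps were small, such as 9.09% against 8.81% with Xist as a covariate. The median fold change of the members stayed below 0 in all 24 settings, between −0.24 and −0.09.

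**Figure D2:**
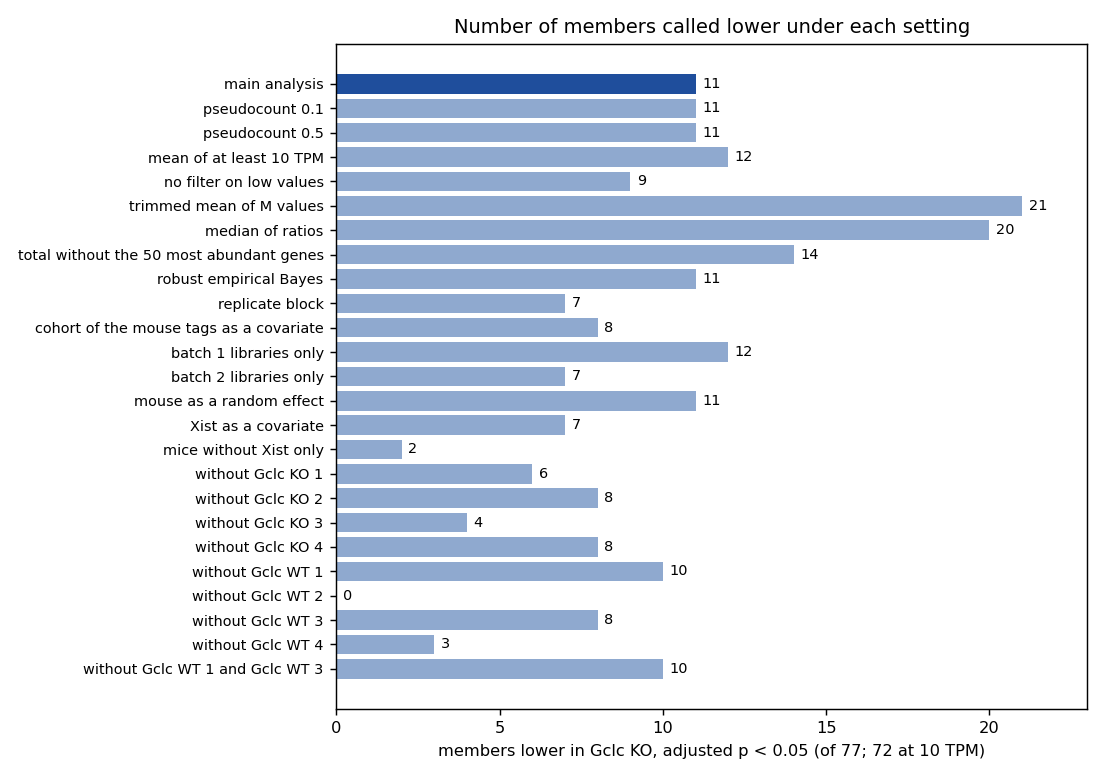
Number of members lower in Gclc KO livers at an adjusted p below 0.05 in the main analysis (11) and in each of 24 other settings, out of 77 members (72 where a mean of 10 TPM was required). The count reached 21 under trimmed mean scaling and 0 without Gclc WT 2.

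The summed level of all members was lower on average in Gclc KO livers, and the genotypes overlapped. It was 2959.6, 2639.8, 2695 and 3156 TPM in Gclc KO mice 1 to 4, against 3016, 3254, 3020.2 and 3456 TPM in Gclc WT mice 1 to 4. The means were 2863 ± 240.3 TPM in Gclc KO and 3186 ± 211 TPM in Gclc WT livers (SD, n = 4 each). Gclc KO 4 lay within the range of the Gclc WT mice, and the other 3 Gclc KO mice lay below it. Among single members, the lowest mouse of all 8 was a Gclc KO mouse for 55 members, most often Gclc KO 2 (33 members) and Gclc KO 3 (19 members), the 2 Gclc KO mice with Xist. The highest mouse was a Gclc WT mouse for 54 members, most often Gclc WT 4 (30 members), and Gclc KO 4 was the highest for 15. The same counts were not made over all genes tested, so whether they are particular to the members is not known. Relative to the Gclc WT mean, the median log2 shift over the members was −0.12, −0.27, −0.23 and 0.00 in Gclc KO mice 1 to 4 and −0.07, 0.04, −0.06 and 0.12 in Gclc WT mice 1 to 4. The sums of the Mrpl members ranged from 1652 to 2007 TPM in Gclc KO and from 1906 to 2223 TPM in Gclc WT livers. Those of the Mrps members ranged from 966 to 1149 TPM in Gclc KO and from 1104 to 1233 TPM in Gclc WT livers. The ratio of the Mrpl sum to the Mrps sum was 1.75 ± 0.05 in Gclc KO and 1.76 ± 0.04 in Gclc WT livers (SD, n = 4 each), a difference smaller than the spread between mice.

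**Figure D3:**
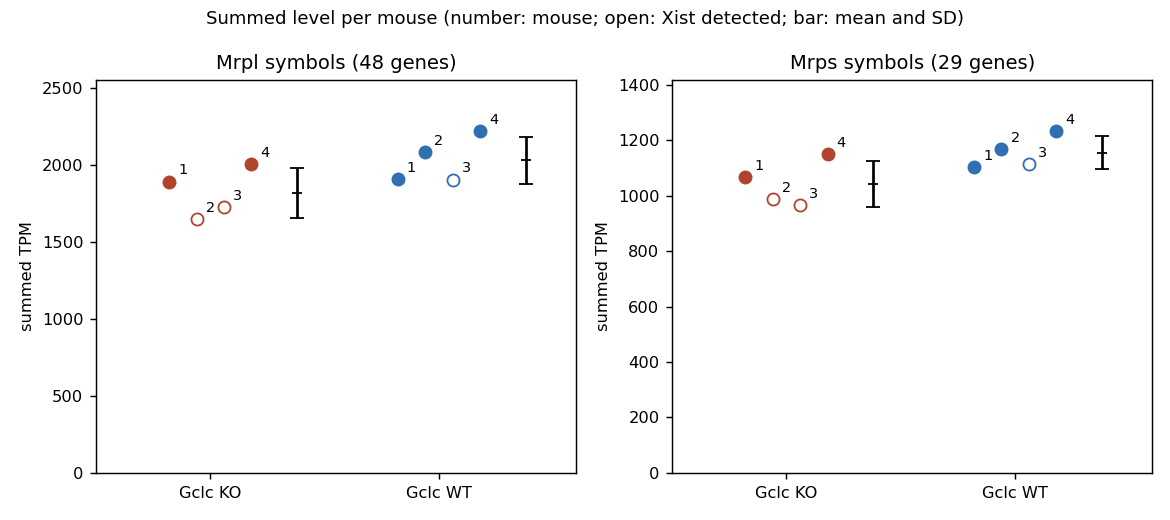
Summed TPM of the 48 Mrpl members (left) and the 29 Mrps members (right) in each mouse, Gclc KO beside Gclc WT, with the mean and SD of 4 mice as bars. Open points are the mice with Xist; Gclc KO 2 and Gclc KO 3 are the lowest in both panels, and Gclc KO 4 lies within the Gclc WT range.

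Of the 48 Mrpl members, 5 were lower (10.4%, against 8.61% of all genes tested), none higher by limma at the adjusted threshold (their 2 unadjusted calls above 0 were Mrpl17 and Mrpl24), and the median log2 fold change was −0.16. Mrpl38, a mitochondria-specific protein of the central protuberance, was 41.7, 31.7, 34.7 and 41.9 TPM in Gclc KO mice 1 to 4, against 50.3, 54.5, 49.1 and 62.8 TPM in Gclc WT mice 1 to 4. All Gclc KO values lay below all Gclc WT values, and the log2 fold change was −0.52 (SE 0.13, limma adjusted p = 0.0214). A set of 4 members of the central protuberance (Mrpl38, Mrpl40, Mrpl46 and Mrpl48) was summed, which does not cover every protein of that structure. The set gave 101 to 121 TPM in Gclc KO and 126 to 161 TPM in Gclc WT livers, with Mrpl38 alone passing the test. All 4 had log2 fold changes below 0 and are among the 38 of 48 Mrpl members (79.2%) below 0. The set was not fixed in advance, so its sums are no test of that structure. Mrpl12, the protein of the flexible stalk that recruits translation factors, was one of the 3 members with the highest mean level, at 117, 89.2, 92.4 and 103 TPM in Gclc KO mice, against 128, 147, 131 and 165 TPM in Gclc WT mice. Its groups did not overlap (log2 fold change −0.50, SE 0.13, limma adjusted p = 0.0243). Mrpl10 and Mrpl11, which form the base of that stalk, were not called, at −0.19 and −0.03 on the log2 scale.

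Mrpl49, a mitochondria-specific protein, was 23.9, 18.96, 19.96 and 22.6 TPM in Gclc KO mice 1 to 4, against 28.0, 31.6, 30.4 and 29.7 TPM in Gclc WT mice 1 to 4. Its log2 fold change was −0.47 (SE 0.11, limma adjusted p = 0.0140), with no overlap. Mrpl9, whose bacterial counterpart sits at the base of another stalk, was 27.5, 32.8, 28.0 and 32.2 TPM in Gclc KO mice, against 40.02, 40.2, 38.02 and 47.3 TPM in Gclc WT mice. The genotypes did not overlap, with a log2 fold change of −0.44 (SE 0.11, limma adjusted p = 0.0217). Mrpl41, another mitochondria-specific protein and one of the 3 members with the lowest mean level, was 9.21, 6.86, 6.83 and 7.98 TPM in Gclc KO mice, against 9.85, 9.86, 10.6 and 12.1 TPM in Gclc WT mice. Its highest Gclc KO value lay just below its lowest Gclc WT value (log2 fold change −0.42, SE 0.12, limma adjusted p = 0.0399), and the call held in 8 of 23 other settings.

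Of the 29 Mrps members, 6 were lower (20.7%, against 8.61% of all genes tested) and none higher by limma. None was higher at an unadjusted p below 0.05 either, and the median log2 fold change was −0.09. The difference between the Mrpl and Mrps members was not tested. Mrps35, which has no bacterial counterpart, was 23.0, 25.4, 20.02 and 28.8 TPM in Gclc KO mice 1 to 4, against 29.9, 37.4, 33.7 and 41.7 TPM in Gclc WT mice 1 to 4. Gclc KO 4 came close to Gclc WT 1 without overlap (−0.54 on the log2 scale, SE 0.14, limma adjusted p = 0.0273). Mrps21, the member with the highest mean level (126 TPM over 8 mice), was 114.2, 78.1, 117 and 108 TPM in Gclc KO mice, against 135, 153, 135 and 170 TPM in Gclc WT mice. Gclc KO 2 was well below the other Gclc KO mice, and the log2 fold change was −0.52 (SE 0.15, limma adjusted p = 0.0379). The call was lost in 11 of 24 settings, among them Xist as a covariate and batch 1 libraries alone.

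Mrps5 and Mrps10 descend from bacterial proteins of the small subunit body and head. Mrps5 was 31.6, 34.5, 29.1 and 34.2 TPM in Gclc KO mice 1 to 4, against 38.8, 50.6, 49.8 and 44.8 TPM in Gclc WT mice 1 to 4 (log2 fold change −0.49, SE 0.12, limma adjusted p = 0.0174). Mrps10 was 31.6, 26.04, 31.4 and 34.2 TPM in Gclc KO mice, against 41.4, 44.04, 41.8 and 44.6 TPM in Gclc WT mice (log2 fold change −0.47, SE 0.11, limma adjusted p = 0.0149). Neither gene overlapped between genotypes, and among the 11 called members they were with Mrpl49 the ones whose call held in the most settings, 23 of 24 for Mrps10 and 22 of 24 for Mrps5 and for Mrpl49. All 3 lost the call without Gclc WT 2.

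Mrps15, a counterpart of a bacterial rRNA-binding protein, was 29.2, 29.2, 28.6 and 26.5 TPM in Gclc KO mice 1 to 4, against 32.9, 35.1, 34.9 and 39.5 TPM in Gclc WT mice 1 to 4 (log2 fold change −0.31, SE 0.10, limma adjusted p = 0.0455). Mrps33, a mitochondria-specific protein, was 34.0, 31.3, 35.1 and 35.6 TPM in Gclc KO mice, against 39.7, 44.3, 41.6 and 44.1 TPM in Gclc WT mice (log2 fold change −0.31, SE 0.09, limma adjusted p = 0.0414). These were the smallest changes among the called members, whose folds on the TPM + 1 scale ran from 1.24 to 1.45, and both had tight values within a genotype. Their calls were each lost in 14 of 24 settings, and the same 8 mice gave unequal values in the 2 batches of libraries. Mrps15 had a log2 fold change of −0.53 in batch 1 (limma adjusted p = 0.00740) and −0.12 in batch 2 (limma adjusted p = 0.633). Mrps33 had −0.11 in batch 1 (limma adjusted p = 0.416) and −0.53 in batch 2 (limma adjusted p = 0.0278). The difference between batches was not tested. Mrps35 had −0.68 in batch 1 (limma adjusted p = 0.0104) and −0.38 in batch 2 (limma adjusted p = 0.155). Mrpl38 and Mrpl41 also lost the call in batch 2, at −0.55 and −0.42, and Mrps21 in batch 1, at −0.52. The other 5 called members passed in both batches.

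**Figure D4:**
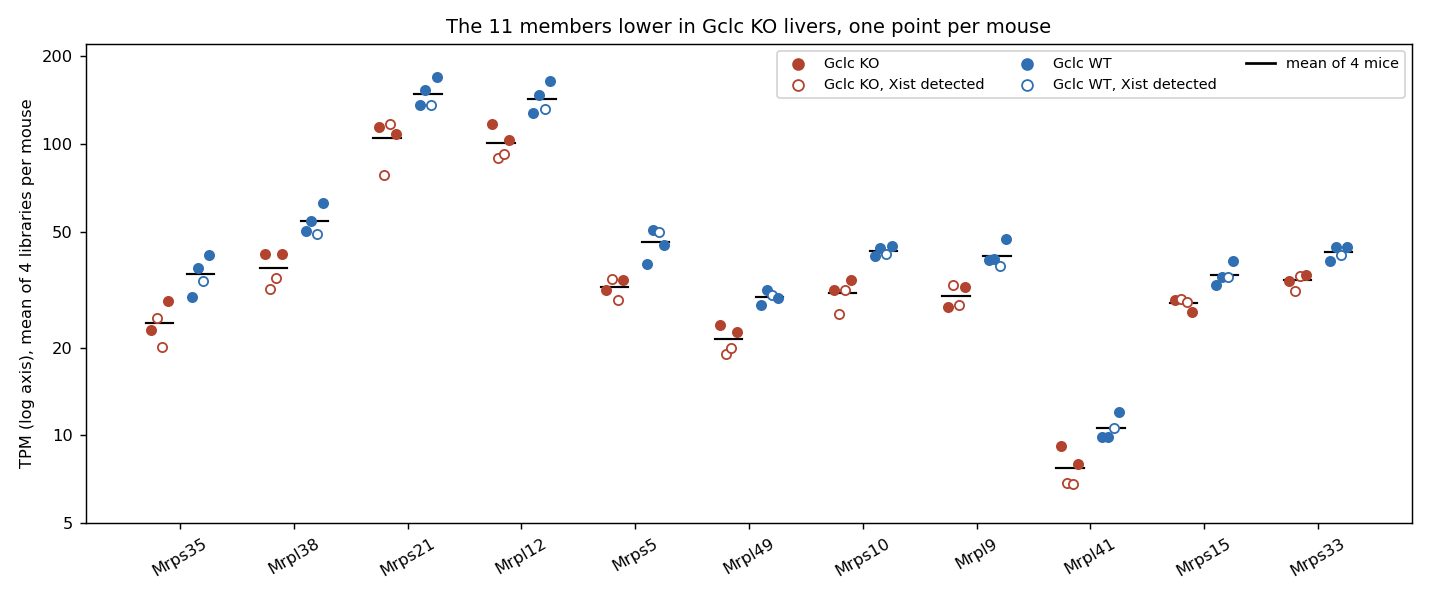
TPM of the 11 members lower in Gclc KO livers, on a log axis, with 1 point per mouse (mean of 4 libraries), Gclc KO left of Gclc WT and the mean of 4 mice as a line; open points are mice with Xist. In each of the 11 genes all Gclc KO points lie below all Gclc WT points, and the plotted means differ by 1.25-fold to 1.47-fold.

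The members were also split by descent. Of 46 members with a bacterial counterpart, 6 were lower (13.0%, against 8.61% of all genes tested), with a median log2 fold change of −0.15. Of 30 mitochondria-specific members 5 were lower (16.7%), with a median of −0.15. Mrps18b was counted among the mitochondria-specific members here, although it is a paralog of a bacterial protein, and Mrps36 was in neither group. This grouping was added after the values were seen, and the difference between the groups was not tested.

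Members that were not called included large changes with a wide spread. Mrpl14, at the interface of the subunits, had a log2 fold change of −0.54 (limma adjusted p = 0.116), with 75.6, 36.5, 59.1 and 75.7 TPM in Gclc KO mice 1 to 4, against 84.5, 88.6, 73.2 and 102 TPM in Gclc WT mice 1 to 4. Gclc KO 2 was the low value, and 2 Gclc KO mice lay within the Gclc WT range. Mrpl17 was 12.6, 11.9, 11.3 and 12.5 TPM in Gclc KO mice, against 9.28, 10.4, 9.23 and 10.9 TPM in Gclc WT mice. Although every Gclc KO mouse was above every Gclc WT mouse, it was not called (log2 fold change 0.25, SE 0.10, limma adjusted p = 0.0959). Mrpl24, one of the 3 members with the highest mean level, was 109, 84.4, 93.4 and 118 TPM in Gclc KO mice, against 80.7, 75.2, 79.2 and 90.4 TPM in Gclc WT mice. The genotypes overlapped (log2 fold change 0.30, limma adjusted p = 0.121), and it passed the threshold in the mice without Xist (0.47) and with the mouse as a random effect (0.30). Mrpl34 (0.25, limma adjusted p = 0.206) and Mrps23 (0.20, limma adjusted p = 0.241) were the next on that side by p-value.

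Mrps18a, Mrps18b and Mrps18c are paralogs of one bacterial protein, of which Mrps18a is found in the large subunit and the other two in the small subunit. Mrps18a was 52.2, 36.9, 39.7 and 56.3 TPM in Gclc KO mice 1 to 4, against 55.3, 64.3, 57.0 and 57.9 TPM in Gclc WT mice 1 to 4, with a log2 fold change of −0.35 (95% interval −0.68 to −0.02, limma adjusted p = 0.114). Mrps18b was 81.2, 67.4, 67.6 and 104 TPM in Gclc KO mice, against 72.4, 63.2, 59.4 and 69.1 TPM in Gclc WT mice, with a log2 fold change of 0.25 (95% interval −0.08 to 0.59, limma adjusted p = 0.256). Mrps18c had a log2 fold change of 0.01 (95% interval −0.25 to 0.26, limma adjusted p = 0.979), and its Gclc KO values, 67.3 to 73.2 TPM, lay within the Gclc WT range of 57.8 to 76.5 TPM. None of the 3 passed the test, and their point estimates lay on both sides of 0. Under trimmed means and median of ratios, which lowered the median of all genes by a like amount, Mrps18c was −0.08, and it was 0.02 when scaled without the 50 most abundant genes. Shared reads between these paralogs may be split by the counting, which is not described.

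Other members fixed for naming were near 0. Mrps12, the protein of the decoding centre, had a log2 fold change of 0.01 (95% interval −0.26 to 0.28), with 48.6 to 59.2 TPM in Gclc KO and 45.8 to 57.7 TPM in Gclc WT livers (−0.08 under the same 2 scalings and 0.03 under the third). Mrps30, which in the assembled particle belongs to the large subunit despite its name, had −0.09 (95% interval −0.31 to 0.14), with 19.8 to 24.7 TPM in Gclc KO and 22.5 to 24.5 TPM in Gclc WT livers. Mrps36, now known as a component of the 2-oxoglutarate dehydrogenase complex and not of the ribosome, had 0.04 (95% interval −0.35 to 0.43), with −0.04 under the same 2 scalings and 0.06 under the third. The members with the lowest mean levels were Mrpl19, at 4.16 ± 0.25 TPM in Gclc KO and 4.35 ± 0.54 TPM in Gclc WT livers, and Mrps25, at 4.63 ± 0.57 TPM in Gclc KO and 5.04 ± 0.97 TPM in Gclc WT livers (SD, n = 4 each). Both genotypes overlapped in both genes. Over the 77 members, mean levels ran from 4.26 TPM (Mrpl19) to 126 TPM (Mrps21) with a median of 34.7 TPM, no member was at 0 in any library, and 20 members had a log2 fold change within 0.1 of 0.

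Exons of 32 members share bases with another gene in the GENCODE annotation of GRCm38, 27 of them with a gene on the opposite strand. Among the called members these are Mrpl12 (with Gm16755), Mrpl49 (with Syvn1) and Mrpl9 (with Oaz3), all on the opposite strand. The libraries were directional, but whether strand was used in counting is not given, so reads of such pairs may not be told apart.

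Ribosomal proteins of mitochondria that carry other names were few. Of 5 tested, Chchd1, a mitochondria-specific protein of the small subunit, was lower, at 38.8 ± 4.92 TPM in Gclc KO and 55.6 ± 7.62 TPM in Gclc WT livers (SD, n = 4 each; log2 fold change −0.51, SE 0.13, limma adjusted p = 0.0262). Over all 5 the share lower was 20%, against 8.61% of all genes tested, and the median was −0.23. Ict1, the older symbol of a large-subunit protein that rescues stalled ribosomes and falls outside the naming rule, was 40.9 ± 4.54 TPM in Gclc KO and 42.9 ± 3.98 TPM in Gclc WT livers (log2 fold change −0.07, limma adjusted p = 0.710).

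Among 25 genes for assembly and rRNA modification of the mitochondrial ribosome, 4 were higher and 0 lower (limma), and the median log2 fold change was 0.01. The share higher was 16%, near the 12.8% of all genes tested, and 8.61% of all genes tested were lower. Ddx28, a helicase of large-subunit assembly, was 31.3, 28.6, 34.5 and 35.7 TPM in Gclc KO mice 1 to 4, against 8.62, 7.67, 11.02 and 9.08 TPM in Gclc WT mice 1 to 4. The fold on the TPM + 1 scale was 3.33 (1.74 on the log2 scale with SE 0.13; limma adjusted p = 0.000142), and the lowest Gclc KO mouse lay far above the highest Gclc WT mouse. Tfb1m, which methylates the small-subunit rRNA, was 15.5 ± 2.37 TPM in Gclc KO and 9.40 ± 1.55 TPM in Gclc WT livers (adjusted p = 0.0123), and Trub2, a pseudouridine synthase family protein, was 5.20 ± 0.87 TPM in Gclc KO and 3.02 ± 0.60 TPM in Gclc WT livers (limma adjusted p = 0.0194; SD, n = 4 each). Nsun3, a tRNA methyltransferase placed in this list, was the fourth, at 0.63. Malsu1, a factor of the large subunit, had −0.46 and was not called.

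In 16 mitochondrial translation factors, 1 was higher (Mtrf1, a release factor family member, log2 fold change 0.50, limma adjusted p = 0.0293) and 1 lower (1700021F05Rik, −0.81, limma adjusted p = 0.00395), with a median of −0.07. Each is 6.25% of the list, and of all genes tested 12.8% were higher and 8.61% lower. In 17 mitochondrial aminoacyl-tRNA synthetases, 1 was higher (5.88%) and 3 were lower (17.6%), namely Nars2 (−0.59), Aars2 (−0.45) and Fars2 (−0.38), which charge the tRNAs for asparagine, alanine and phenylalanine, with a median of −0.06. In 13 genes of mitochondrial protein quality control, Clpx, the unfoldase of the matrix protease ClpXP, was higher, at 76.1 ± 20.06 TPM in Gclc KO and 35.6 ± 2.85 TPM in Gclc WT livers (SD, n = 4 each; limma adjusted p = 0.00513), and none was lower. That is 7.69% of the list, in which 9 genes had log2 fold changes below 0 and the median was −0.16. Trap1 (−0.44, limma adjusted p = 0.0556) and Lonp1 (−0.29, limma adjusted p = 0.0995) were not called. Of 10 regulators of mitochondrial biogenesis, Nrf1, which encodes nuclear respiratory factor 1, was higher (log2 fold change 0.40, limma adjusted p = 0.0415), and the coactivator Ppargc1b (−1.13, limma adjusted p = 0.00552) and the nuclear receptor Esrra (−0.58, limma adjusted p = 0.0134) were lower. That is 10% higher and 20% lower in a short list. Of 11 genes for mitochondrial DNA transcription and replication, Peo1, an older symbol of the Twinkle helicase gene, was higher (0.74, limma adjusted p = 0.0109), which is 9.09% of the list. Exons of the Mrpl43 gene share bases with those of that helicase gene on the opposite strand, and Mrpl43 itself had −0.03 and was not called. The 13 mRNAs encoded in mitochondrial DNA were searched by their mt- symbols, were not found in the deposited values and so were not analysed.

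The nuclear subunits of the respiratory chain and ATP synthase, which apart from those of Complex II are assembled with products of mitochondrial ribosomes, were lower in a larger share of the list. Of 74 tested, 41 (55.4%) were lower and 0 higher (limma), against 8.61% lower and 12.8% higher of all genes tested. The median log2 fold change was −0.44. Their median level was 198 TPM, against 34.7 TPM in members and 10.9 TPM in all genes tested, and a higher level can make calls easier. Their sum was 13608 to 16061 TPM in Gclc KO livers and 17682 to 22587 TPM in Gclc WT livers, without overlap. Calls were spread over Complex I (16 of 35 lower), Complex II (3 of 4), Complex III (6 of 9), Complex IV (7 of 10) and ATP synthase (9 of 15). Examples were Cyc1 of Complex III, at 123 ± 7.55 TPM in Gclc KO and 206 ± 19.5 TPM in Gclc WT livers, Ndufb10 of Complex I, at 158 ± 19.8 TPM in Gclc KO and 274 ± 23.4 TPM in Gclc WT livers, and Atp5k of ATP synthase, at 187 ± 30.3 TPM in Gclc KO and 368 ± 64.4 TPM in Gclc WT livers (SD, n = 4 each). The count of lower genes was 51 under trimmed mean scaling, 50 with median of ratios and 59 with the mouse as a random effect. It was 11 without Gclc WT 2, 17 without Gclc WT 4, 20 without Gclc KO 3 and 25 in the mice without Xist.

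Cytosolic ribosomal protein genes, whose products translate all nuclear mRNAs, were higher in part. Of 79 tested, 37 were higher (46.8%, against 12.8% of all genes tested) and 0 lower (limma). Their median level was 452 TPM, against 10.9 TPM in all genes tested. The median log2 fold change was 0.39, with sums of 37883 to 41331 TPM in Gclc KO and 28016 to 34089 TPM in Gclc WT livers, without overlap. Rps20 was 577 ± 55.8 TPM in Gclc KO and 331 ± 41.5 TPM in Gclc WT livers (SD, n = 4 each; log2 fold change 0.80, limma adjusted p = 0.00427), and Rpl12 was 716 ± 41.9 TPM in Gclc KO and 460.5 ± 43.1 TPM in Gclc WT livers (0.64, limma adjusted p = 0.00682). The count of higher genes was 23 under trimmed mean scaling, 18 with median of ratios, 17 without Gclc KO 1, 21 without Gclc KO 4, 20 without Gclc WT 1, 18 without Gclc WT 2, 20 with a replicate block, 63 with the mouse as a random effect and 6 without Gclc WT 1 and Gclc WT 3 together. Many of these genes have near-identical processed copies, which the counting may have split. All lists share the same 8 mice, and no difference between lists was tested.

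**Figure D5:**
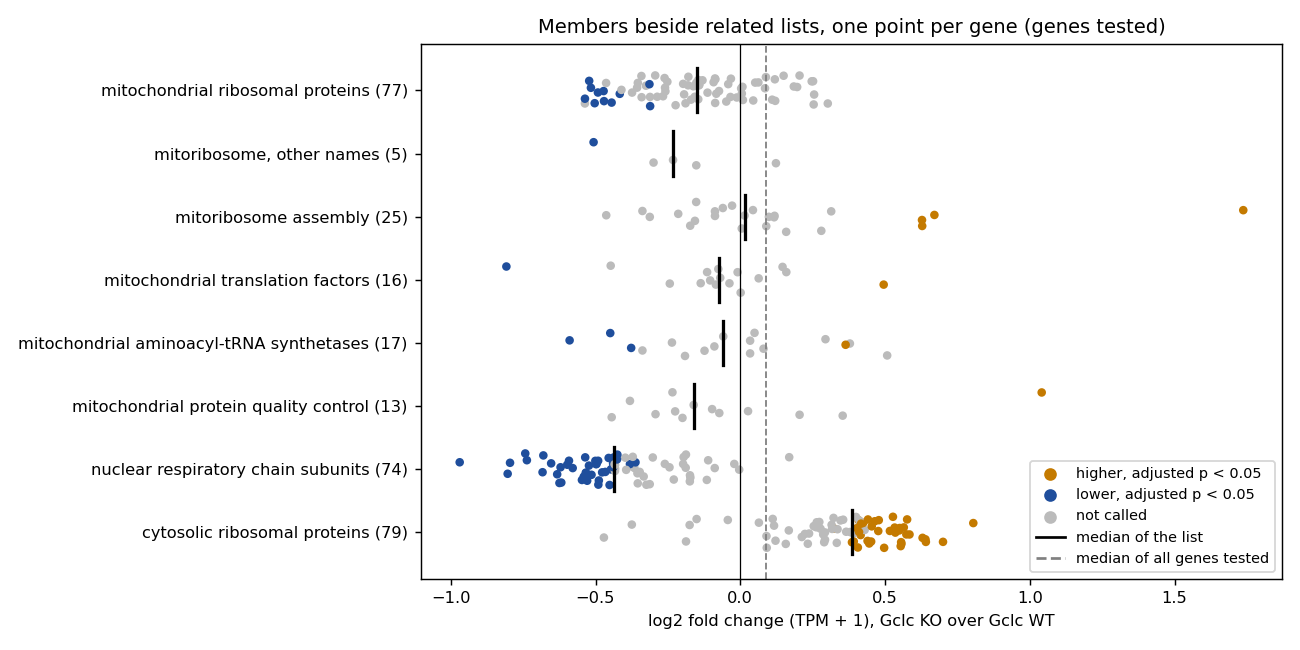
Log2 fold change (on TPM + 1) of each tested gene in the members and in 7 related lists, Gclc KO over Gclc WT, with the list median as a solid line and the median of all genes tested (0.09) as a dashed line. The medians are −0.15 for the 77 members, −0.44 for the 74 nuclear respiratory chain subunits and 0.39 for the 79 cytosolic ribosomal proteins; coloured points passed an adjusted p of 0.05.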

How the data were processed

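RNA from 8 mouse livers was purified on PureLink columns and made into directional mRNA libraries (Kapa), 4 per mouse, told apart by a batch and a second number whose meaning is not given. The authors deposited 1 table per gene and library, named as normalized counts. Each library sums to 999315 to 999534, so the deposited values were taken as TPM, which keep no depth; sequencing depth is unknown. The submitters' processing notes name bcl2fastq 2.2, and for the aligner, quantifier, genome build and gene models the sources used here name none. Rows repeating a symbol (75) were left out.

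Libraries of a mouse were averaged. Genes averaging 1 TPM or more were tested on log2(TPM + 1), which understates the change of low genes, with limma 3.58.1 in R 4.3.3 (mean-variance trend, two-sided, no covariates). Calls required a Benjamini-Hochberg adjusted p below 0.05 over all 11284 genes. The fit was tested on simulated data. The median SD of members was 0.18 among libraries of a mouse, 0.17 among Gclc KO mice and 0.14 among Gclc WT mice (log2).

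Members, lists and tests were chosen with earlier results of these data known. Named members were up to 8 called without overlap in each direction with the largest changes (at least 4 per direction, by p), the 3 highest and 3 lowest by mean TPM, and a fixed set (the Mrps18 paralogs, Mrps30, Mrps36, Mrpl12, Mrps12 and Ict1); Mrps15 and Mrps33, the other called members, and Mrpl14 were named after their values were seen. In other lists, up to 3 genes with the smallest adjusted p were named. Nsun3, Malsu1, Mrpl10, Mrpl11, Mrpl40, Mrpl43, Mrpl46 and Mrpl48 were named after their values were seen. Kinases and binding proteins with similar symbols were kept out of the cytosolic ribosomal list. Alternatives covered pseudocount, filter, scaling, robust fit, replicate block, cohort, batch, a random effect, Xist and each mouse left out.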

Additional observations from a re-analysis of the deposited data

Results flagged for a closer look

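In 52 groups of 4 mice (named members and summed values, by genotype), 2 (3.85%) had a mouse whose gap to the nearest other mouse took up nearly the whole range; chance gives about 1 in 20. For Mrps12, Gclc KO 4 had 5.91 on the log2(TPM + 1) scale and the remaining 3 Gclc KO mice had 5.63 to 5.68. For Mrpl34, Gclc WT 3 had 5.44 on that scale, and the remaining 3 mice of its genotype had 5.68 to 5.71.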

How the results depend on the processing

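Of the 11 members lower in Gclc KO livers, none changed direction in any of the 24 other settings (23 for Mrpl41, which is below 10 TPM). The count of 11 was 21 under trimmed mean scaling, 20 with median of ratios, 7 with batch 2 libraries alone, 7 with Xist as a covariate, 2 in the mice without Xist, and 0 to 10 with each mouse left out. The share of members called lower was above that of all genes in the same fit in 20 settings and below it in 4 (without Gclc WT 2, Gclc WT 4 or Gclc KO 3, and in the mice without Xist). All settings refit the same mice and some gaps were small, so this tally is not independent evidence. With a replicate block the count was 7. Same-numbered mice had correlations of their deviations of −0.12 to 0.34. Those of mice 3 (0.34) and mice 4 (0.26) were the highest of all combinations of Gclc KO and Gclc WT mice. Such correlations cannot show whether mice were paired. The mouse tags in the labels lie close together within each number, so whether the numbers pair the mice is not known. The count of higher members was 1 with batch 1 libraries alone (Mrpl34), and 1 with the mouse as a random effect and in the mice without Xist (Mrpl24), and otherwise 0 in limma. Leaving out Gclc WT 1 and Gclc WT 3 together, chosen after seeing the data, gave 10 lower. The cause of these shifts was not tested.

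Trimmed means and median of ratios lower all genes, so values just above 0 turn there. Only members that were not called changed sign among the genes named by the rule. On the log2 scale Mrps18c was −0.079 with trimmed means, −0.082 with median of ratios, −0.083 with batch 1, −0.013 with Xist as a covariate and −0.067 without Gclc WT 1 and Gclc WT 3, and −0.085 to 0.048 with each mouse left out. Mrps36 was −0.038 with trimmed means, −0.041 with median of ratios, and −0.060 to 0.21 with each mouse left out. Mrps12 was −0.076 with trimmed means, −0.080 with median of ratios, −0.10 with batch 2, and −0.057 to 0.062 with each mouse left out. Mrpl19 was 0.091 with batch 2, and Mrps25 0.010 without the Xist mice. Depth is unknown, so no counting limit can be set for low members.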
